A study of Mus musculus with 8 samples.

Results

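Potassium channel genes were compared between MHCII-high and MHCII-low macrophages, which had been isolated from implanted pancreas tumours of mice by fluorescence-activated sorting. Members were all probes, controls aside, whose gene name in the array files begins with Kcn, which gave 181 of 56605 probes and 98 of 37011 gene names. Of these, 114 probes of 71 genes were called well above background by the scanner software on 4 or more of the 8 arrays, and these genes were tested with the 28010 genes of the whole array that met the same condition. The series holds 4 MHCII-high and 4 MHCII-low samples, named for how much they carry of MHC class II, which shows peptides to helper T cells. All 8 came from female mice 8 to 10 weeks old of a strain given as FvBn and carried implanted tumours of the pancreas, and the genotype is given as not provided. The series text also names normal pancreas and wild-type, KPC and FLT3-CRE/LSL-YFP mice, without saying which of them these samples belong to. Which other surface markers the sort used was not given in the sources used here. Each group carries the label numbers 20435, 20436, 20439 and 20442 once, and per-sample values below follow that order. What the numbers mark is not stated, and the labels do not say whether separate animals gave the samples of a group. The p-values therefore measure no more than the spread among these samples, and this spread may be technical.

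Potassium channels let potassium ions leave the cell along their gradient and so hold the membrane at a negative voltage. Voltage-gated channels are tetramers of alpha subunits that open on depolarization and are tuned by auxiliary subunits. Calcium-activated channels open when cytosolic calcium rises, inward rectifiers set the resting potential, and tandem-pore-domain channels carry a steady leak. In macrophages and other leukocytes such channels are known to sustain calcium entry by keeping the membrane negative, and loss of cytosolic potassium is a known trigger of the NLRP3 inflammasome.

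Between 38756 and 42120 of the 56605 probes were well above background per array, from 68.5% to 74.4%, and no spot was saturated. Across genes, which are no independent replicates, pairs of arrays correlated at 0.949 to 0.971 within MHCII-high, 0.951 to 0.968 within MHCII-low and 0.908 to 0.961 between the groups. Macrophage markers were measured on the arrays (8 of 8 tested), with a mean log2 level of 4.06 to 4.46 in MHCII-high samples and 4.55 to 4.96 in MHCII-low samples. Of these 8, 1 passed the test, Adgre1, an adhesion receptor that marks mouse macrophages, which was lower in MHCII-high. Dendritic cell markers were higher in MHCII-high for 8 of 9 genes, with mean levels of -0.01 to 1.37 in MHCII-high samples and -2.56 to -1.83 in MHCII-low samples. Of 8 genes that mark serous-cavity macrophages, 7 were lower in MHCII-high, with mean levels of -2.02 to 0.66 in MHCII-high samples and 2.23 to 2.59 in MHCII-low samples. Over all genes tested, 2.63% were higher and 2.3% lower in MHCII-high (limma, adjusted p under 0.05). All levels here are log2 signals minus the array's 75th percentile, so 0 stands for that percentile, and levels of different probes are not comparable. In bulk samples such as these, fewer cells of a type and less RNA per cell cannot be told apart.

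Detection is given as a description with no test, since it chose the genes tested. Of the 181 probes, 114 (63.0%) met the condition, against 72.8% of all probes, and 49 (27.1%) were well above background on no array, against 19% of all probes. Probes of tandem-pore-domain channels had the largest share that met it among the 6 families (17 of 20), and probes of calcium- and sodium-activated channels and their beta subunits had the smallest (18 of 33). Voltage-gated alpha subunits met it with 45 of 78 probes, inward rectifiers with 13 of 22 and auxiliary subunits with 15 of 20. The number of Kcn probes well above background was 112, 113, 113 and 112 in MHCII-high samples and 112, 118, 111 and 103 in MHCII-low samples. These ranges overlapped.

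**Figure D1:**
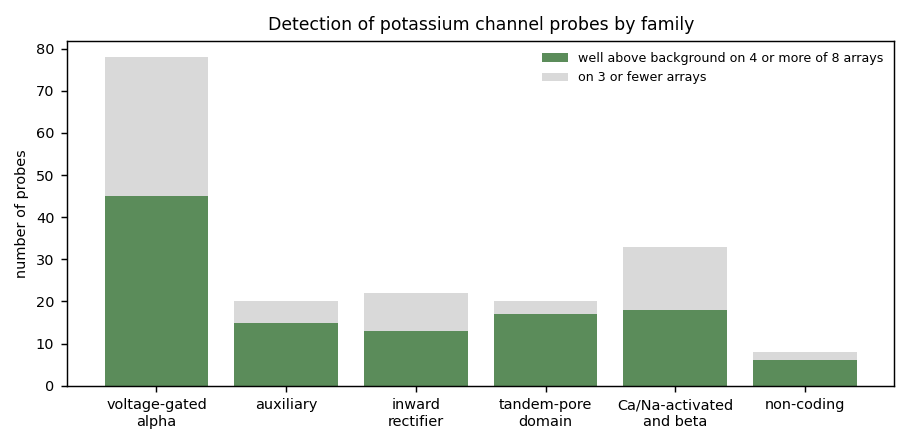
Number of Kcn probes in each channel family (bars), split by whether the scanner software called the probe well above background on 4 or more arrays or on 3 or fewer. Tandem-pore-domain probes met the condition in 17 of 20 cases and voltage-gated alpha subunit probes in 45 of 78.

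The 27 genes that were not tested included voltage-gated subunits of neurons and muscle (Kcna1, Kcna4, Kcnb2, Kcnc1, Kcnc2, Kcnf1, Kcng3, Kcnh5, Kcnh7, Kcns2 and Kcns3). They also held 6 inward rectifiers (Kcnj1, Kcnj6, Kcnj12, Kcnj13, Kcnj15 and Kcnj16) and the tandem-pore-domain channels Kcnk1 and Kcnk5. The others were the auxiliary subunits Kcne1l and Kcne2, the sodium- or pH-activated channels Kcnt2 and Kcnu1, the beta subunits Kcnmb1, Kcnmb3 and Kcnmb4, and the antisense transcript Kcnmb4os1. Kcnk5 (TASK-2), known from T cells, thus had no measured level here. With no filter on dim probes, 0 of these 27 genes passed the adjusted limma test and 3 had an unadjusted p under 0.05. Those 3 were Kcnh7, Kcnj15 and Kcnj16, each called well above background on 3 arrays of 1 group and 0 of the other. Over all genes of the fit without that filter, 2.88% passed the adjusted test, and the share at an unadjusted p was not counted.

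Just outside the detection condition lay 5 probes that were well above background on 3 arrays, and just inside it lay 2 probes on 4 arrays, those of Kcna2 and a second probe of Kcnh2. The widest gap among the 5 was that of Kcnj16, the Kir5.1 inward rectifier subunit. Its probe had log2 levels of -7.07, -7.39, -7.20 and -6.88 in MHCII-high samples and -7.26, 0.21, 0.42 and 1.21 in MHCII-low samples. It was called well above background on 0 MHCII-high and 3 MHCII-low arrays, while MHCII-low 20435 was as dim as the MHCII-high samples. Kcnj15 (Kir4.2) was the reverse, with levels of -3.94, -5.94, -4.41 and -2.28 in MHCII-high samples and -7.38, -7.32, -7.27 and -7.10 in MHCII-low samples. Kcnh7, a relative of the hERG channel, was likewise called on 3 MHCII-high and 0 MHCII-low arrays. The other 2 probes, those of Kcnc1 and a second probe of Kcng2, were each called on 2 MHCII-high and 1 MHCII-low arrays. The Kcnc1 probe had levels of -4.61, -4.82, -4.16 and -4.03 in MHCII-high samples and -5.39, -4.17, -6.96 and -5.10 in MHCII-low samples. The Kcng2 probe had -7.18, -5.29, -3.10 and -3.38 in MHCII-high samples and -5.84, -4.87, -5.65 and -4.92 in MHCII-low samples. The groups overlapped for both. In the fit without a filter on dim probes, the adjusted limma p was 0.135 for Kcnj16, 0.0514 for Kcnj15 and 0.179 for Kcnh7.

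Of the 71 genes tested, 1 was higher and 3 were lower in MHCII-high macrophages at an adjusted p under 0.05 (limma, Benjamini-Hochberg over all genes). Kcna2, Kcnn3 and Kcnk13 were lower and Kcnh3 was higher, each in 4 of 4 comparisons between samples of the same label number. Over all genes tested, 4.93% passed in either direction, 2.63% higher and 2.3% lower, so the count of potassium channel genes lay near the share of the whole array and is not a result about the family. The median log2 difference was -0.05 for potassium channel genes and -0.01 for all genes, and the median size of the difference was 0.35 and 0.27. A difference within 0.5 log2 units of 0 was measured for 51 potassium channel genes (71.8%), against 72.6% of all genes. A difference over 1 log2 unit in size was measured for 6 (8.45%), against 9.2% of all genes. By family, 1 of 29 voltage-gated alpha subunits was higher and 1 lower, 1 of 7 calcium- or sodium-activated channel genes and 1 of 12 tandem-pore-domain channels were lower, and 0 of 11 auxiliary subunits, 0 of 9 inward rectifiers and 0 of 3 non-coding transcripts passed. At an unadjusted p under 0.05, 5 potassium channel genes were higher and 6 lower, where 10.3% and 9.38% of all genes were, or 19.7% in either direction. These counts were 0 among auxiliary subunits, 0 among inward rectifiers and 1 among non-coding transcripts.

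**Figure D2:**
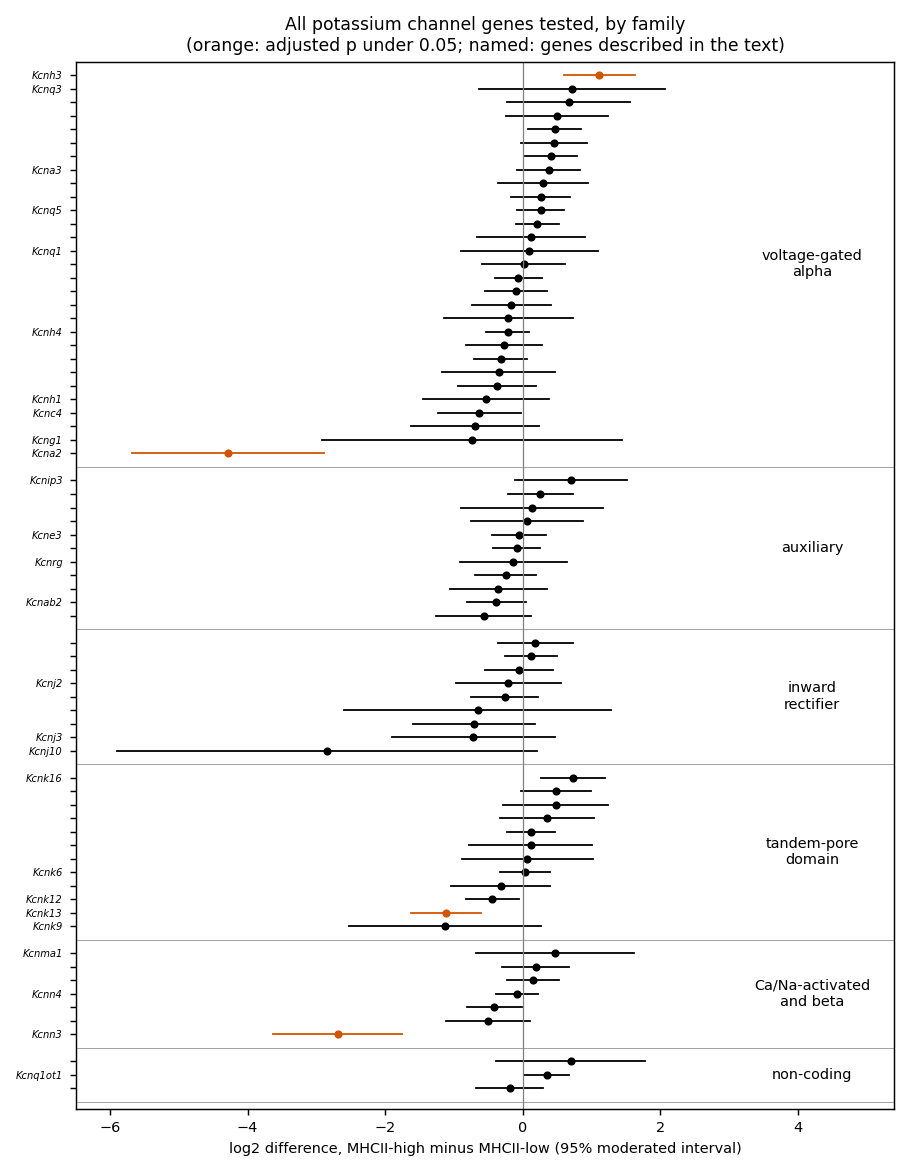
Log2 difference, MHCII-high minus MHCII-low, of the 71 potassium channel genes tested (points) with the 95% interval from the moderated standard error (lines), grouped by family, with the genes described in the text named. Kcnh3 lies right of 0 and Kcna2, Kcnn3 and Kcnk13 lie left of it in orange, while most other intervals cross 0.

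Kcna2 encodes Kv1.2, a Shaker-type voltage-gated alpha subunit best known from axons, where it limits excitability. Its log2 levels were -5.33, -7.49, -7.41 and -6.97 in MHCII-high samples and -3.64, -2.44, -2.81 and -1.19 in MHCII-low samples. On the linear scale of the scanner these were processed signals of 83.2, 23.1, 23.4 and 25.7 in MHCII-high samples and 314, 704, 515 and 1406 in MHCII-low samples. All MHCII-high samples lay below all MHCII-low samples, and the scanner software called the probe well above background on 0 of 4 MHCII-high and 4 of 4 MHCII-low arrays. The level was at least 5.79-fold lower in MHCII-high, a bound taken against the lowest signal well above background on each array, with an adjusted limma p of 0.00846. This bound holds for the scanner's background-subtracted signals: with normexp background correction the log2 difference was -1.48 (limma adjusted p = 0.00909), a smaller fold than the bound. Means were -6.80 ± 1.01 in MHCII-high and -2.52 ± 1.02 in MHCII-low samples (SD, n = 4 each), a difference of -4.28 that rests on values below the detection condition in MHCII-high. Because the gene entered the test only through the MHCII-low arrays, it had to differ, and its call says little beyond its detection. Without the filter on dim probes its adjusted p was 0.0156. Within slide row 1 the difference was -4.53, and within row 2 it was -5.38.

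Kcnn3 encodes SK3, a small-conductance channel that opens when calcium bound to calmodulin acts on its gate, known from neurons and endothelium. Its brighter probe gave log2 levels of -1.17, -0.77, -2.44 and -2.40 in MHCII-high samples and 1.23, 1.40, 0.81 and 0.54 in MHCII-low samples. Every MHCII-high sample was below every MHCII-low sample, and the probe was well above background on all 8 arrays. Kcnn3 averaged -1.70 ± 0.85 in MHCII-high and 0.99 ± 0.39 in MHCII-low samples (SD, n = 4 each). It was 6.46-fold lower in MHCII-high (95% interval 3.37 to 12.4; log2 difference -2.69, limma adjusted p = 0.0108). A second, dimmer probe gave -1.84, -2.84, -2.60 and -1.97 in MHCII-high samples and -0.62, -0.89, -1.60 and -1.63 in MHCII-low samples. The second probe had the same direction without overlap, with a difference of -1.12 and a limma adjusted p of 0.0873 over all probes. The size of the difference in Kcnn3 thus depended on the probe. Kcna2, Kcnk13 and Kcnh3 each had only 1 probe among the members, so no second probe stands beside their differences. Within slide row 1 the difference of the brighter probe was -1.91, and within row 2 it was -2.55.

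Kcnk13 encodes THIK-1, a tandem-pore-domain leak channel known in mouse microglia, where it carries the resting potassium current and supports release of interleukin 1 beta. Its log2 levels were 2.85, 2.50, 1.98 and 1.98 in MHCII-high samples and 3.59, 3.42, 3.28 and 3.49 in MHCII-low samples. The groups did not overlap, and MHCII-high samples spread more widely. Kcnk13 averaged 2.33 ± 0.43 in MHCII-high and 3.45 ± 0.13 in MHCII-low samples (SD, n = 4 each) and was 2.17-fold lower in MHCII-high (95% interval 1.53 to 3.08; log2 difference -1.12, limma adjusted p = 0.0274). The call ended with slide row as a block (adjusted p = 0.107) and on leaving out any 1 sample except MHCII-high 20435, with adjusted p up to 0.0805. The difference itself stayed between -1.29 and -1.0 when samples were left out, and was -0.93 within row 1 and -1.22 within row 2. Kcnk12, its close relative THIK-2, which pairs with THIK-1, had levels of -2.56, -2.56, -2.70 and -2.33 in MHCII-high samples and -2.25, -1.73, -2.20 and -2.21 in MHCII-low samples. These also did not overlap, but the difference of -0.44 did not pass the test (limma adjusted p = 0.189).

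Kcnh3 encodes Elk2, a voltage-gated alpha subunit of the ether-a-go-go family known from forebrain neurons, and was the 1 gene higher in MHCII-high macrophages. Its log2 levels were -0.48, -0.41, -0.41 and -0.13 in MHCII-high samples and -2.05, -1.07, -1.22 and -1.53 in MHCII-low samples. The MHCII-high samples lay close together and all above the MHCII-low samples. Kcnh3 averaged -0.36 ± 0.16 in MHCII-high and -1.47 ± 0.43 in MHCII-low samples (SD, n = 4 each) and was 2.16-fold higher in MHCII-high (95% interval 1.51 to 3.09; log2 difference 1.11, limma adjusted p = 0.0304). The call ended with slide row as a block (adjusted p = 0.104) and with label number as a block. It also ended on leaving out any 1 sample except MHCII-low 20436, with adjusted p up to 0.0813. The difference was 1.04 within slide row 1 and 1.20 within row 2, and 0.92 to 1.24 when samples were left out.

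**Figure D3:**
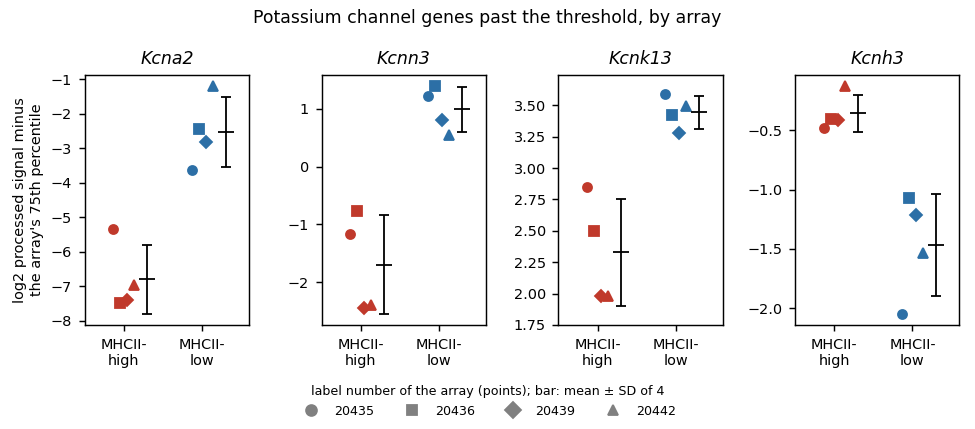
Log2 signal relative to the array's 75th percentile for Kcna2, Kcnn3, Kcnk13 and Kcnh3 in each sample (points, shape by label number), with mean ± SD of 4 samples per group. In each panel the MHCII-high samples (left) do not overlap the MHCII-low samples (right), and the axes of the panels differ.

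The probes behind these 4 genes are shown to place each measurement on its transcript. Coordinates are those of the array files on mm9, and the files used here do not say whether a position is exonic, intronic or in a UTR. The first 30 of 60 bases are printed 5′ to 3′, as in the files.
Kcna2 (chr3:106909700-106909759, plus strand): actcacatgactgaactttggggattaatc
Kcnn3, brighter probe (chr3:89465136-89466660, plus strand): aaacaccagaggaagttcctccaagctatc
Kcnn3, second probe (chr3:89476303-89476362, plus strand): gcatcttgcctctgtactgcttgctatttt
Kcnk13 (chr12:101300820-101300879, plus strand): gagcctggtgcagaggcaactgactattta
Kcnh3 (chr15:99073169-99073227, plus strand): tgccattccttgcatgtgcccgtctccact
The brighter Kcnn3 probe spans 1525 bases of the genome with its 60 bases, so it crosses a gap in the genomic sequence, and it starts at transcript position 2102. The second Kcnn3 probe lies within 60 bases of the genome and starts at position 7503 of the transcript. The 2 Kcnn3 probes with unequal differences therefore read distant stretches of the same gene.

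For Kcnh3, the promoter set used here held no window. The promoter windows of the other 3 genes past the threshold, all lower in MHCII-high, are shown. They are RefSeq sequences of GRCm38.p6 of 300 bases around the annotated start, 5′ to 3′ on the plus strand, with matches to the searched motifs in capitals. The motif GAGGAAG stands for the core bound by PU.1, the myeloid factor. The motif TGANTCA stands for AP-1, and AGATAA for factors of the GATA family. GGGCGG is the GC box, CCAAT is the box of that name, and TATAAA is the core of a TATA box. Each was searched on both strands, and the 2 matches found do not overlap another motif.
Kcnn3 (chr3:89519914-89520213): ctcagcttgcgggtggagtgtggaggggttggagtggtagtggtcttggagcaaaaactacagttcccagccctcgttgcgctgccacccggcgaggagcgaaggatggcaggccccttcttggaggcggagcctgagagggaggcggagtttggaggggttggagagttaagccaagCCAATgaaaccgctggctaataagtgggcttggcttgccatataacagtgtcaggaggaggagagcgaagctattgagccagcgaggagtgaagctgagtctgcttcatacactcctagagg
Kcna2 (chr3:107101317-107101616): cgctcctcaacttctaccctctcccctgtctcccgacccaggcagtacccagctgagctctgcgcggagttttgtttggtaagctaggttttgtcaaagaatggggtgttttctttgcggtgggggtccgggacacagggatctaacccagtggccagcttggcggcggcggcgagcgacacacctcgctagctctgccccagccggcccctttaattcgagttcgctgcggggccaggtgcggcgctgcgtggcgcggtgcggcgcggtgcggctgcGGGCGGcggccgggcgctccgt
Kcnk13 (chr12:99964249-99964548): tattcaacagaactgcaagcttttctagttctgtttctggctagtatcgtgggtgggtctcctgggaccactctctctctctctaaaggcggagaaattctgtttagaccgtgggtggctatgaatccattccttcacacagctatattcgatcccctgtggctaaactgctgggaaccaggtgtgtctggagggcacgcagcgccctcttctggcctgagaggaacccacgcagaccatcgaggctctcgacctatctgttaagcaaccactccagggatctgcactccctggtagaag
The Kcnn3 window held 1 CCAAT match, the Kcna2 window 1 GC box match, and the Kcnk13 window none of the 6 motifs. CCAAT was found in 37.4% and the GC box in 35.7% of all 32851 promoter windows, and in 32% and 47.4% of the 97 windows matched to 72 of the 98 potassium channel genes. GAGGAAG was found in 13.6% of all windows and 14.4% of potassium channel windows, and AGATAA in 11.2% and 4.12%. TGANTCA was found in 7.81% and 4.12%, and TATAAA in 13.6% and 5.15%. Such matches describe the letters of these windows and say nothing of binding.

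Of the channels with known roles in macrophages and other leukocytes, none but Kcna2 and Kcnk13 passed the test. Kcnn4, the intermediate-conductance calcium-activated channel KCa3.1 of T cells and macrophages, had log2 levels of 4.09, 3.87, 3.86 and 3.91 in MHCII-high samples and 4.02, 3.86, 4.05 and 4.14 in MHCII-low samples. The groups overlapped, and the difference was -0.09 (95% interval -0.39 to 0.22), with all 3 Kcnn4 probes between -0.24 and -0.09. Kcna3, the Kv1.3 channel of T cells and macrophages, had levels of 0.92, 1.27, 1.28 and 0.66 in MHCII-high samples and 0.60, 0.72, 0.94 and 0.35 in MHCII-low samples. Its difference of 0.38 (95% interval -0.08 to 0.83) did not pass the test, although the MHCII-high sample was the higher one in 4 of 4 label numbers. Kcnj2, the strong inward rectifier Kir2.1 that sets the resting potential of macrophages, had levels of -1.74, -1.43, -1.37 and -2.89 in MHCII-high samples and -1.53, -1.97, -1.37 and -1.71 in MHCII-low samples. MHCII-high 20442 was low and the other samples overlapped, with a difference of -0.21 (95% interval -0.98 to 0.56).

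Kcnk6 encodes TWIK-2, the tandem-pore-domain channel known for the potassium loss that precedes NLRP3 activation in mouse macrophages. It had levels of 1.12, 1.04, 0.67 and 0.75 in MHCII-high samples and 0.94, 0.67, 0.85 and 1.02 in MHCII-low samples, a difference of 0.03 (95% interval -0.34 to 0.39). A second Kcnk6 probe, well above background on all 8 arrays, had levels of 0.73, 0.41, 0.51 and 0.70 in MHCII-high samples and 0.08, 0.05, 0.18 and 0.49 in MHCII-low samples. It differed by 0.39 (limma adjusted p over probes 0.219), and its groups overlapped. Kcnab2, the beta subunit Kvbeta2 that associates with Kv1 channels, had levels of 3.03, 2.67, 2.37 and 2.71 in MHCII-high samples and 3.38, 2.90, 2.90 and 3.14 in MHCII-low samples. The MHCII-high sample was the lower one in 4 of 4 label numbers, but the difference of -0.38 did not pass the test (limma adjusted p = 0.309). Kcne3, an auxiliary subunit that changes the gating of Kcnq1 and of Kv3 channels, differed by -0.05 (95% interval -0.45 to 0.34). Kcnma1, the large-conductance BK channel, differed by 0.47 with its brightest probe and by -0.15 to 0.03 with its other detected probes. Kcnq1 differed by 0.10 (95% interval -0.89 to 1.09), with all its samples between -4.63 and -2.57. The interval of Kcnn4 stayed within 0.4 log2 units of 0, while those of Kcnma1, Kcnj2 and Kcnq1 leave room for larger differences.

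**Figure D4:**
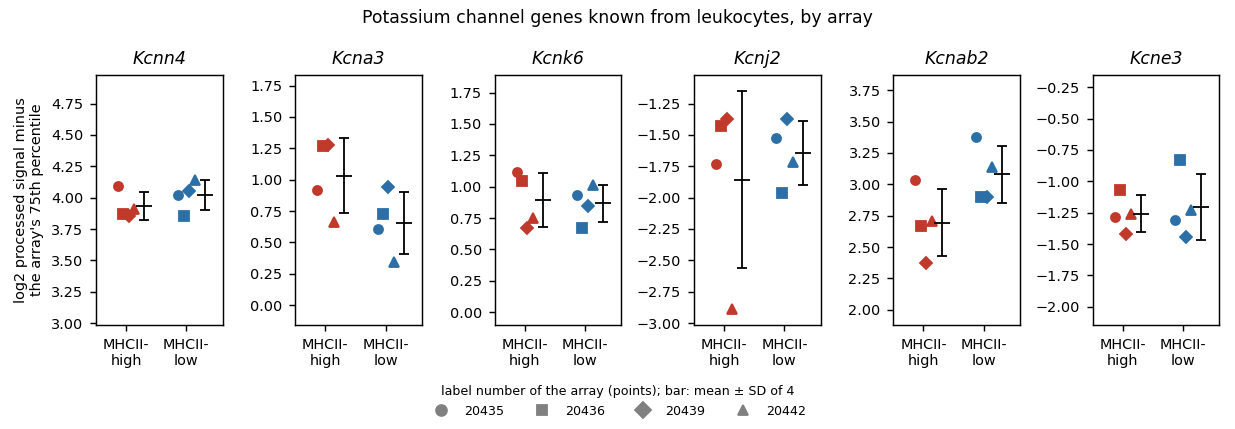
Log2 signal relative to the array's 75th percentile for Kcnn4, Kcna3, Kcnk6, Kcnj2, Kcnab2 and Kcne3 in each sample (points, shape by label number), with mean ± SD of 4 samples per group. MHCII-high samples (left) and MHCII-low samples (right) overlap in every panel, and each axis spans its own range of levels.

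Among the inward rectifiers tested, Kcnj10 had the largest difference in size, which did not pass the test. It encodes Kir4.1, known from glia and kidney tubules, where it forms channels with Kir5.1, the product of Kcnj16. Its levels were -3.47, -3.34, -4.64 and -6.97 in MHCII-high samples and -5.76, -0.81, -0.59 and 0.10 in MHCII-low samples. In MHCII-low, 3 samples lay above all MHCII-high samples. MHCII-low 20435 lay far below those 3 and within the range of the MHCII-high samples, as it did for Kcnj16. The difference of -2.84 had a 95% interval of -5.90 to 0.21 and a limma adjusted p of 0.289. Without MHCII-low 20435 it was -4.17, with an adjusted p that rounds to 0.05 and did not pass. Kcnj3, the G protein-gated subunit Kir3.1, differed by -0.72 with its brightest probe (limma adjusted p = 0.49), whose MHCII-low samples ranged from -3.81 to -1.16. Its second probe, well above background on all 8 arrays, differed by 0.02, so no direction is given.

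Within the tandem-pore-domain family, Kcnk16 (TALK-1, known from pancreatic beta cells) had levels of -0.17, 0.10, 0.18 and 0.59 in MHCII-high samples and -0.92, -0.43, -0.42 and -0.44 in MHCII-low samples. The groups did not overlap, but the difference of 0.73 did not pass the test (limma adjusted p = 0.0869), and a second, dimmer probe differed by 0.04. Of 4 tested islet markers, Ins2 was higher in MHCII-high by 1.09 (limma adjusted p = 0.0391). Gcg (-0.18), Pax6 (-0.12) and Ins1 (0.20) did not pass, and the median of the 4 was 0.04. The other 4 of the 8 islet markers were not detected on enough arrays (Sst, Chga, Iapp and Neurod1), and the part of islet RNA in the Kcnk16 values was not tested. Kcnk9, the acid-sensitive leak channel TASK-3, differed by -1.13 (95% interval -2.53 to 0.27) at levels of -5.83 to -2.60, where 2 of 4 MHCII-high and 3 of 4 MHCII-low arrays were well above background. Without a test, samples did not overlap for 4 genes higher in MHCII-high (Kcnh3, Kcnk16, Kcna10 and Kcnq1ot1) and for 4 lower (Kcna2, Kcnn3, Kcnk13 and Kcnk12). Over all genes, 7.26% and 7.14% did not overlap in these directions.

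Kcnq1ot1 is the long non-coding RNA that runs antisense through Kcnq1 and silences neighbouring genes on the paternal chromosome. It had levels of 4.41, 4.38, 4.5 and 4.6 in MHCII-high samples and 4.35, 3.98, 4.00 and 4.16 in MHCII-low samples. Its brightest probe differed by 0.35 (95% interval 0.02 to 0.68, limma adjusted p = 0.224), and its 4 detected probes differed by -0.48 to 0.99. Its detected probes lay between positions 150399016 and 150440199 of chromosome 7 (mm9). The Kcnq1 probe used lay outside this stretch, at 150334693 to 150335442. Whether the labelled product kept the strand is not stated, so RNA of either strand within the Kcnq1ot1 stretch cannot be told apart here. Of the voltage-gated subunits, Kcnc4 (Kv3.4) had levels of -0.68, -0.87, -1.08 and -0.92 in MHCII-high samples and -0.15, 0.07, 0.11 and -1.05 in MHCII-low samples. MHCII-low 20442 alone fell among the MHCII-high samples. The difference of -0.63 did not pass (limma adjusted p = 0.232), and without that sample it was -0.90 with an adjusted p of 0.0359. Kcng1, a modifier subunit that is silent on its own, differed by -0.74 with a wide 95% interval of -2.92 to 1.44.

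Several genes had probes that did not move alike. Kcnip3, which encodes the calcium sensor calsenilin (also called DREAM), an auxiliary subunit of Kv4 channels, differed by 0.70 with its brightest probe (limma adjusted p = 0.326) and by 0.56 with a second. The remaining, dim probe had levels of -3.02, -2.62, -2.52 and -2.54 in MHCII-high samples and -4.20, -5.29, -4.97 and -6.85 in MHCII-low samples. These did not overlap, and the probe was called above background on 4 of 4 MHCII-high and 1 of 4 MHCII-low arrays. With every probe tested as its own feature, an alternative chosen after seeing the data, its difference was 2.65 with a limma adjusted p of 0.0215. The probe met the detection condition mainly through the MHCII-high arrays, so it had to differ, and the size of the difference rests on MHCII-low values of which 3 were not well above background. The 3 probes are shown with the first 30 of their 60 bases, since they read separate stretches of the gene on the minus strand of mm9.
Kcnip3, dim probe (chr2:127284097-127285097): ccattgatgaatttctggagacttgtcaga
Kcnip3, brightest probe (chr2:127282242-127282301): tggttcctgtctcagcgcccaccaatattc
Kcnip3, probe of the 0.56 difference (chr2:127307742-127307801): gtgctgctgttcattgccgtcctcaagcag
The dim probe spans 1001 bases of the genome and so crosses a gap in it, while the other two lie within 60 bases each.

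Detected probes of further genes, Kcnq1ot1 and the 5 described here among them, gave differences more than 1 log2 unit apart. Kcnq5, a subunit of the M-type channels of neurons, differed by 0.26 with its brightest probe and by 2.51 with another (limma adjusted p over probes 0.116), and its other 3 probes were well above background on no array. Kcnq3, a relative of Kcnq5 in the same channels, differed by 0.72 with its brightest probe and by -1.27 with the other. Kcnh4 (Elk1) differed by -0.22 and 1.56, and Kcnrg, a soluble suppressor of voltage-gated channels, by -0.14 and 1.43. Kcnh1 (Eag1) differed by -0.54 and 0.63. None of these probes passed the limma test adjusted over all probes. Except for Kcnq5, whose detected probes had the same sign, the direction depended on the probe, and none is given.

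Genes that work beside potassium channels were compared as lists, which were chosen with results of these data known. Their counts stand beside the 2.63% of all genes that were higher and the 2.3% that were lower at an adjusted p under 0.05, and beside 10.3% and 9.38% at an unadjusted p under 0.05. The 12 tested potassium channel partners without a Kcn name included the sulphonylurea receptor Abcc9, Dpp subunits and Hcn pacemaker channels. The receptor Abcc8 was not detected on enough arrays. Of the 12, 0 passed and 2 had an unadjusted p under 0.05, both higher in MHCII-high. The median log2 difference of these partners was -0.07. Of 22 potassium pump and cotransporter genes, 0 passed, 2 were higher and 3 lower at an unadjusted p under 0.05, and the median was -0.05. Of 17 calcium entry and release channel genes, 0 were higher and 2 lower, with a median of -0.17, and at an unadjusted p under 0.05 4 were higher and 4 lower. The 2 that were lower at an adjusted p under 0.05 were the ATP-gated channel P2rx1 (-0.94, limma adjusted p = 0.0462) and the cation channel Trpv4 (-1.11, limma adjusted p = 0.0392). The median over 73 genes of other cation and anion channel families was 0.07, and 2 of these genes were higher. They were Cacng6, a gamma subunit of voltage-gated calcium channels (1.83, limma adjusted p = 0.00111), and the cation channel Trpc4 (1.49, limma adjusted p = 0.0393). Trpv4, given above as lower, is on this list too.

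Kcna2, Kcnn3 and Kcnh3 are best known from neurons, and markers of other cell types were set beside them. Over all genes tested, 2.63% were higher and 2.3% lower at an adjusted p under 0.05. Of 7 tested markers of neurons and Schwann cells, 1 passed, S100b, which was lower in MHCII-high by 4.02 on the log2 scale. The mean level of the 7 was -1.77 to -1.61 in MHCII-high samples and -1.5 to -1.05 in MHCII-low samples. Of 10 fibroblast, smooth muscle and endothelial markers, 0 passed the limma test and 0 had an unadjusted p under 0.05. Their mean level was -1.23 to 0.07 in MHCII-high samples and -0.14 to 0.53 in MHCII-low samples, and Rgs5 was not detected on enough arrays. T and NK cell markers passed in 0 of 9 cases (limma; 1 lower at an unadjusted p under 0.05), at mean levels of -1.40 to -0.71 in MHCII-high samples and -1.47 to -0.80 in MHCII-low samples. Neutrophil, mast cell and eosinophil markers passed in 2 of 11 cases (Kit, higher, and Ccr3, lower) and acinar, ductal and tumour epithelial markers in 1 of 10 (Cdh1, higher). The part of any of these cells, or of dendritic cells and serous-cavity macrophages, in the 4 potassium channel differences was not tested.

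**Figure D5:**
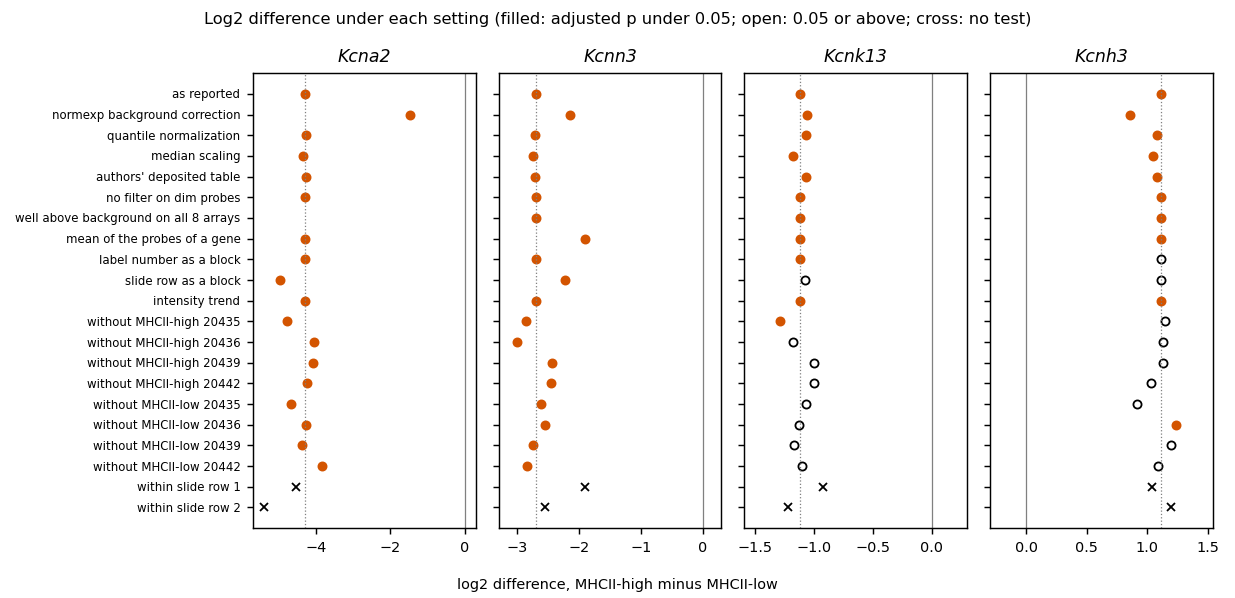
Log2 difference, MHCII-high minus MHCII-low, of Kcna2, Kcnn3, Kcnk13 and Kcnh3 (columns) under each setting (rows); filled points have an adjusted p under 0.05, open points do not, and crosses carry no test. Kcnn3 is filled in all tested settings and Kcna2 in all in which it was tested, while Kcnk13 and Kcnh3 are open in most settings that leave out a sample.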

How the data were processed

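Spot intensity on a linear scale came from Agilent Feature Extraction 11.5.1.1 (1 colour, Cy5), per the submitters' processing notes and the file headers, and the authors deposited processed signals with the background subtracted. Per the labels' protocols, the Sigma WTA2 kit amplified the RNA, and the product was labelled chemically. The authors also deposited a table of log2 values per probe, whose normalization is not given in the sources used here; its column medians lay between 9.38137 and 9.38149, and it correlated with each array's log2 signal at 0.998 to 0.9998, so its scale and direction were those of the signals, without centring of genes. The 8 arrays shared 1 slide and 1 scan time. Slide row 1 carried 1 array of MHCII-high and 3 of MHCII-low, row 2 the reverse.

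From these files, 3671 control spots and 67 to 160 outlier spots per array were left out. Kcnj5 lacked 1 value in each group and Kcnmb2 lacked 1 in MHCII-low for that reason, and they were fitted without them. Log2 processed signals were scaled by subtracting the array's 75th percentile. Probes well above background on 4 or more arrays were kept, and the brightest probe stood for a gene. Names came from RefSeq tables of GRCm38.p6, by accession for 156 Kcn probes and by symbol for 25. Groups were compared with limma 3.58.1 (lmFit and eBayes, R 4.3.3) over 28010 genes, two-sided, with Benjamini-Hochberg adjustment at 0.05, and the script was tested on simulated data. Where no array of a group measured a gene well above background, the fold is a bound against the lowest signal that was. The number of arrays limits the precision.

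Named genes were those past the threshold, the 10 with the largest differences, a list known from leukocytes, those past the threshold under an alternative, and those whose probes disagreed; Kcna10 and the probes near the detection condition were chosen after their values were seen. The members and lists were chosen with earlier results of these data known. Alternatives covered background correction, normalization, the deposited table, the filter, the choice of probe, label number and slide row as blocks, an intensity trend and leaving out each array. A few genes are not reported here.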

Additional observations from a re-analysis of the deposited data

Results flagged for a closer look

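In groups of 4 samples, 10 of 139 tested groups of potassium channel genes (7.19%) held a sample whose gap to the others exceeded Dixon's critical value at the 95% level, where chance gives about 1 in 20. Among the named genes these were 4 of 52 groups. Kcnj10 was at a log2 level of -5.76 in MHCII-low 20435, against -0.81 to 0.10 in the other MHCII-low samples. Kcnk16 was at -0.92 in the same sample, against -0.44 to -0.42 in the others. Kcnk12 was at -1.73 in MHCII-low 20436, against -2.25 to -2.20 in the others. Kcnrg was at -1.0 in MHCII-high 20436, against -0.25 to -0.20 in the others.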

How the results depend on the processing

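Kcn genes lower in MHCII-high numbered 2 or 3 under every setting run. The 1 Kcn gene higher, Kcnh3, became 0 with slide row as a block and 0 to 1 when 1 sample was left out. With slide row as a block, 297 genes of the whole array were higher and 155 lower, and an intensity trend gave 981 lower. Leaving out 1 sample gave 305 to 633 higher and 245 to 521 lower genes, against 736 and 644 with all samples. The Kcna2 difference was -1.48 after normexp background correction, against -4.28, and Kcna2 was not tested where all 8 arrays had to be well above background. Counts within a slide row have no test. Depth limits Kcna2, whose MHCII-high signals were not well above background.

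As for pairing, deviations of the samples with the same label number correlated at 0.188, 0.128, 0.211 and 0.084. Those with unlike numbers correlated at -0.174 to 0.074, and all 8 samples correlated best with their own number. What the number marks is not stated, and the main fit took no account of it, so its p-values leave out any pairing. With the label number as a replicate block, 0 Kcn genes were higher and 3 lower, Kcnh3 had an adjusted p of 0.0665, and 483 genes of the whole array were higher and 336 lower.

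Reversals concerned genes that did not pass the test, and the cause was not tested. Normexp gave 0.0105 for Kcne3 and -0.0122 for Kcnq1, and median scaling -0.0301 for Kcnk6. Slide row as a block gave 0.0194 for Kcne3, 0.26 for Kcng1 and -0.42 for Kcnq1. The mean of a gene's probes gave 0.0438 for Kcnh1, 0.67 for Kcnh4, -0.17 for Kcnq1, -0.28 for Kcnq3 and 0.65 for Kcnrg. Other probes gave 0.63 for Kcnh1, 1.56 for Kcnh4, 0.0212 for Kcnj3, -0.14 and -0.15 for Kcnma1, -0.14, -0.54 and -0.0845 for Kcnq1, -0.48 for Kcnq1ot1, -1.27 for Kcnq3 and 1.43 for Kcnrg. Leaving out 1 sample gave -0.135 to 0.0703 for Kcne3, -0.372 to 0.132 for Kcnj2, -0.045 to 0.102 for Kcnk6, -0.242 to 0.444 for Kcnq1 and -0.341 to 0.112 for Kcnrg.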

Other observations

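MHCII-low 20435 stood below the other MHCII-low samples for both subunits of the Kir4.1 and Kir5.1 channel. Kcnj10 was at a log2 level of -5.76 and Kcnj16 at -7.26 in that sample, against -0.81 to 0.10 and 0.21 to 1.21 in the other 3. Kcna2 was lowest in the same sample among MHCII-low samples, at -3.64, and so was Kcnh3, at -2.05. Kcnk13 was instead highest there, at 3.59 against 3.28 to 3.49, and Kcnn3 was second highest, at 1.23 against 0.54 to 1.40. The eosinophil receptor Ccr3 was at -1.91 there, against 1.09 to 2.31 in the other MHCII-low samples, whereas the glial marker S100b was at -0.63, against -1.36 to -0.16. This sample was singled out after its values were seen, and no test was made.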
